A study of Mus musculus with 9 samples.

Results

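The genes described are the matrix metalloproteinases (MMPs), the ADAMTS proteases, the ADAMTS-like proteins and the tissue inhibitors of metalloproteinases (TIMPs). They were chosen by symbol alone, as every gene of the authors' table named Mmp, Adamts or Adamtsl with a number, or Timp1 to Timp4, and comprised 51 of the 27179 gene IDs in the expression matrix. Of the 51, 23 were MMPs, 19 ADAMTS proteases, 5 ADAMTS-like genes and 4 TIMPs.

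MMPs are zinc-dependent proteases, secreted or anchored in the membrane, that are made as inactive precursors and cleave collagens, gelatin and other matrix proteins. ADAMTS proteases are secreted relatives that carry thrombospondin repeats and cleave proteoglycans such as aggrecan and versican or trim the ends of procollagens, while ADAMTS-like proteins share the repeats and lack the protease domain. TIMPs bind the active site of these enzymes, and in bone, cartilage and fibrous tissue the balance of proteases and inhibitors sets how fast matrix is removed and rebuilt.

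Grem1 encodes gremlin 1, a secreted protein that binds and blocks bone morphogenetic proteins, and the question was what its loss changes in stromal cells of the leptin receptor (LEPR) lineage next to an implant. The study compared 5 libraries of Grem1 conditional knockouts (Grem1 cKO, genotype Lepr-CreERT;Tdtomato;Grem1fl/fl) with 4 libraries of Cre-only littermate controls (Lepr-CreERT;Tdtomato). Both groups carried the tamoxifen-inducible CreERT driven from Lepr and the tdTomato reporter, and both received tamoxifen and a tibial implant, with the fibrous tissue around it taken 2 weeks after surgery. Lineage-negative, Lepr-tdTomato-positive cells were sorted by flow cytometry, and their polyadenylated RNA was sequenced in pairs of 150-base reads. Recombination was thus directed to cells that express Lepr; which part of Grem1 is deleted is not given in the labels. Whether each library came from its own animal is not given in the labels, and p-values reflect only how far these libraries differ, which may be technical.

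Depth recovered from the deposited values was 76.3 to 87.2 M reads in Grem1 cKO replicates 1 to 4, 43.5 M in Grem1 cKO replicate 5 and 44.8 to 53.4 M in the 4 controls. Grem1 itself had 83.2, 46.4, 124.8, 132.9 and 60.8 normalized counts in Grem1 cKO replicates 1 to 5, against 736.3, 517.3, 676.1 and 356.3 in control replicates 1 to 4, with no overlap between the groups (log2 fold change -2.72, SE 0.43, 95% interval -3.67 to -1.76, adjusted p = 0.00781; exact two-sided permutation p = 0.00794, the smallest that 126 regroupings allow). In replicate 5 alone against the controls, which are of like depth, it was -3.16 (adjusted p = 0.153). All 7 markers of LEPR stromal cells were detected in every library, and 1 passed the limma test, Pdgfra, as higher in Grem1 cKO (log2 fold change 1.08, adjusted p = 0.0229). Pdgfrb was lower in every Grem1 cKO library than in any control and did not pass (log2 fold change -0.49, adjusted p = 0.0739). Lepr was lowest in Grem1 cKO replicate 5, at 1347.5 normalized counts, and in control replicate 4, at 934.8. It was highest in control replicates 3 and 1, at 40593.8 and 18730.3. Grem1 cKO replicate 5 stood apart from the other 4 cKO libraries and lay nearer the control mean than the mean of those 4 for 62.8% of the tested members, against 62.75% of all tested genes. Summed markers of chondrocytes were 28768 to 930054 normalized counts in Grem1 cKO, with the highest value in replicate 5, against 1449587 to 3793122 in controls, and 4 of the 8 genes fell. Skeletal muscle markers summed to 52867 to 498429 in Grem1 cKO against 236.1 to 1266 in controls, and 6 of 6 rose. Schwann cell markers summed to 12847 to 38331 in Grem1 cKO against 1842 to 6200.2 in controls, and 4 of 5 rose. Endothelial markers summed to 4077 to 7730.1 in Grem1 cKO, against 111774 and 143370.3 in control replicates 1 and 3, with 4681 and 6653 in the other controls, and 2 of the 8 genes, Flt1 and Cldn5, fell. The part of these cell types in the results below was not tested unless a value is given. In bulk samples, fewer cells of a type and less RNA per cell cannot be told apart.

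Across the family 4 ADAMTS genes passed the test and no MMP or TIMP did. Adamts5 and Adamts20 rose in Grem1 cKO cells, and Adamts4 and Adamts6 fell, so that the aggrecan-cleaving pair Adamts4 and Adamts5 moved in opposite directions. Of the 51 genes, 43 had enough reads to test, and 4 of the 43 (9.30%) passed limma's moderated test at an adjusted p under 0.05, against 7.48% of all 15832 genes tested. Higher in Grem1 cKO were 2 members, against 4.61% of all genes, and lower were 2, against 2.87%. The share called was thus near the background. Of the 43, 16 had a positive and 27 a negative log2 fold change (Grem1 cKO minus control), with a median of -0.35, against a median of -0.004 over all tested genes. The 2 groups did not overlap for 7 of the 43 (16.3%), against 11.4% of all tested genes; Grem1 cKO lay wholly above the controls for 3, against 6.82% of all genes, and wholly below for 4, against 4.60%. An unadjusted p under 0.05 was reached by 17 of the 43, against 26.9% of all genes.

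By class, limma calls stand against 7.48% of all genes tested, and unadjusted p-values under 0.05 against 26.9%. The classes are small and were not compared by a test. Of 15 tested MMPs, 0 passed the limma test. Of their 15 fold changes, 14 were negative (11 in edgeR and in DESeq2, 7 for replicate 5 alone against the controls), with a median of -0.72, and 4 had an unadjusted p under 0.05. On reads recovered from the values, edgeR's quasi-likelihood test (4.96% of all genes called) also called 0 MMPs, and DESeq2 (16.2% of all genes called) called 1, Mmp14 (adjusted p = 0.0417). The 19 ADAMTS proteases held all 4 calls (21.05% of them), with a median log2 fold change of -0.72. All 5 ADAMTS-like genes had a positive fold change, with a median of 0.36, and none passed the limma test, 2 having an unadjusted p under 0.05. Of the 4 TIMPs, 3 had a positive fold change, the median was 0.27, and none passed the limma test, with 2 at an unadjusted p under 0.05; DESeq2 called no TIMP and 1 ADAMTS-like gene, Adamtsl5 (adjusted p = 0.00664), and edgeR called none of either class. The untested 8 were Mmp1a, Mmp1b, Mmp7 and Mmp20, with no read in any library, and Mmp12, Mmp21, Mmp24 and Mmp27, which fell below the filter on low values.

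**Figure D1:**
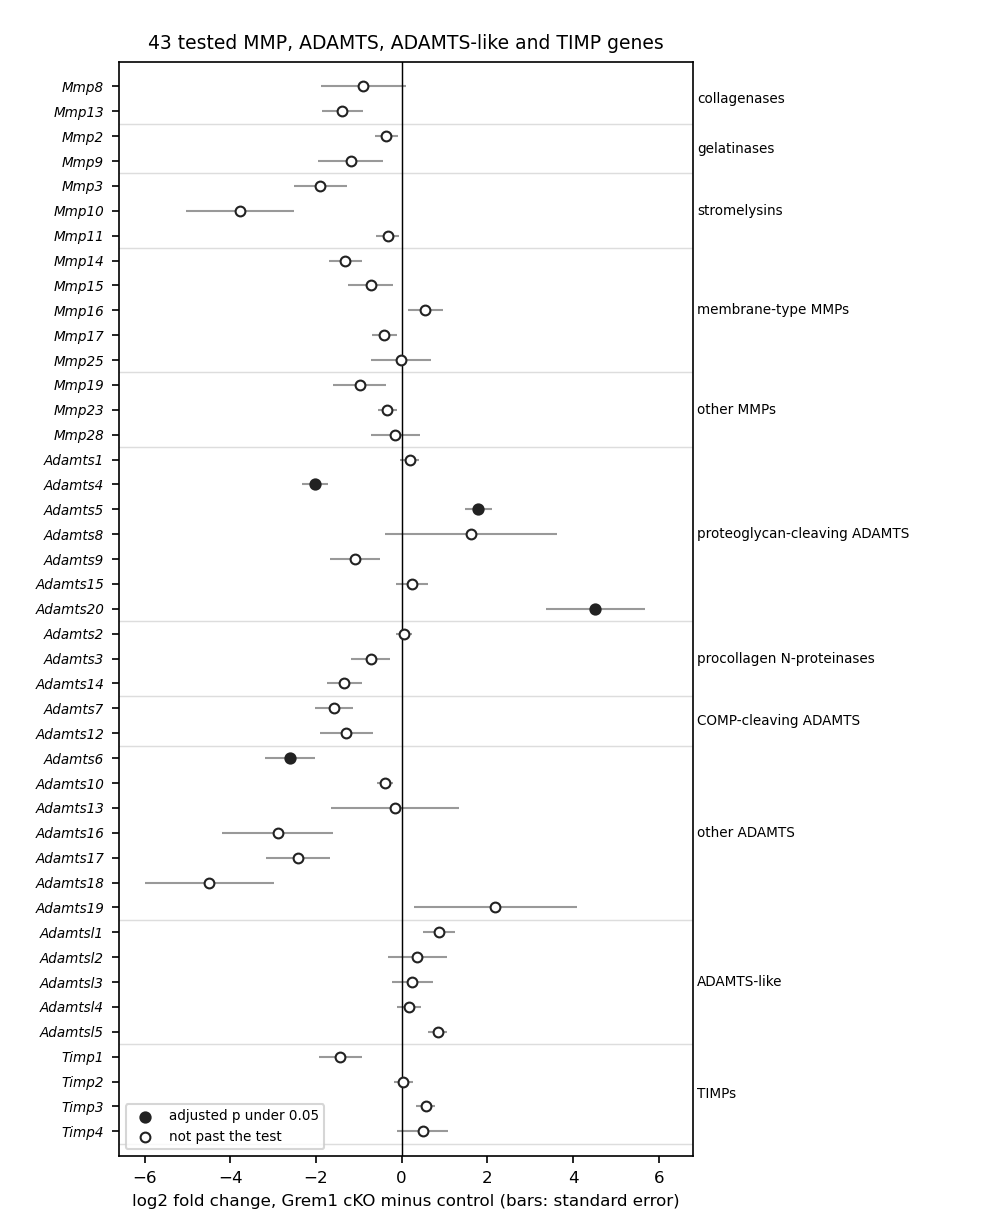
Log2 fold change (Grem1 cKO minus control) on the horizontal axis for the 43 tested members, grouped by role from top to bottom, with bars for the standard error; filled points have an adjusted p under 0.05. The 4 filled points are Adamts4 and Adamts6 on the negative side and Adamts5 and Adamts20 on the positive side, and the MMP points lie left of 0 except Mmp16.

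Of the 7 tested proteoglycan-cleaving ADAMTS genes, 3 passed the test (42.9%), against 7.48% of all genes tested. Adamts4, one of the aggrecanases that cut the core protein of cartilage aggrecan, had 1584, 1404, 1306, 1237 and 3361 normalized counts in Grem1 cKO replicates 1 to 5, against 5041, 5607.5, 7560.2 and 9140.0 in control replicates 1 to 4. The highest Grem1 cKO library, replicate 5, stayed below the lowest control. The mean was 1778 ± 894.5 in Grem1 cKO (SD, n = 5) and 6837 ± 1876.5 in controls (SD, n = 4), and the gene fell 4.04-fold (log2 fold change -2.01, SE 0.30, 95% interval -2.68 to -1.34, adjusted p = 0.00612). Adamts5, the main aggrecanase of mouse cartilage, which also cleaves versican, had 5729.5, 3099, 6138, 4586 and 2335 normalized counts in Grem1 cKO replicates 1 to 5, against 1613, 1195, 1354 and 751.8 in control replicates 1 to 4. All 5 Grem1 cKO libraries lay above all 4 controls, with replicate 5 again nearest to them. The mean was 4377.5 ± 1641 in Grem1 cKO (SD, n = 5) and 1228.5 ± 361.6 in controls (SD, n = 4), and the gene rose 3.47-fold (log2 fold change 1.79, SE 0.32, 95% interval 1.08 to 2.50, adjusted p = 0.0134). Both calls held under 18 of 19 alternative settings, including each of the 9 in which 1 library was left out. The exception was the comparison at like depth, of Grem1 cKO replicate 5 alone with the controls, where the log2 fold changes were -0.98 for Adamts4 (adjusted p = 0.523) and 0.98 for Adamts5 (adjusted p = 0.605), with the lone library assumed to vary as the controls do.

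Within each library the ratio of Adamts5 to Adamts4 normalized counts put both genes on 1 scale. It was 3.62, 2.21, 4.70, 3.71 and 0.695 in Grem1 cKO replicates 1 to 5, against 0.320, 0.213, 0.179 and 0.0823 in control replicates 1 to 4. The ratio was higher in every Grem1 cKO library than in any control, with replicate 5 closest to them. This separation adds no evidence, as it follows from Adamts5 lying wholly above and Adamts4 wholly below the controls. Per kilobase of exon, mean levels in Grem1 cKO were 370 ± 186 for Adamts4 and 406 ± 152 for Adamts5 (SD, n = 5), against 1421 ± 390.1 for Adamts4 and 114 ± 33.5 for Adamts5 in controls (SD, n = 4). Per length, the pair was within 1 SD of each other in Grem1 cKO, and Adamts4 lay above Adamts5 by more than the spread in controls. The annotation gives Adamts4 exons that overlap another gene over 3.56% of their length.

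Adamts20, a versican-cleaving protease known in mice for the belted coat pattern of its mutants, had 312.1, 724.2, 352.6, 131.5 and 107.1 normalized counts in Grem1 cKO replicates 1 to 5, against 82.4, 11.0, 15.1 and 0 in control replicates 1 to 4. It was low throughout, and the lowest Grem1 cKO library exceeded the highest control by a small margin. The mean was 325.5 ± 247.6 in Grem1 cKO (SD, n = 5) and 27.1 ± 37.4 in controls (SD, n = 4) (log2 fold change 4.52, SE 1.15, 95% interval 1.95 to 7.08, adjusted p = 0.0447). The call was lost when any of Grem1 cKO replicates 1 to 4 or control replicates 2 to 4 was left out (adjusted p 0.0727 to 0.105), and it held without Grem1 cKO replicate 5 (0.0242) and without control replicate 1 (0.0298). At like depth the adjusted p was 0.714, and edgeR's test gave a log2 fold change of 3.56 (0.102). The other genes of the group did not pass the test. Adamts1, which neighbours Adamts5 on chromosome 16, averaged 11103 ± 2398 in Grem1 cKO and 9980.0 ± 3288 in controls (log2 fold change 0.19, adjusted p = 0.641). Adamts8 and Adamts15 had fold changes of 1.61 and 0.25 on the log2 scale (adjusted p = 0.638 and 0.707), and Adamts9 had -1.09 (adjusted p = 0.259). Adamts8 ranged from 372.8 to 1842 in Grem1 cKO replicates 1 to 4 and was at 0 in replicate 5, against 24.8 to 254.0 in controls.

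**Figure D2:**
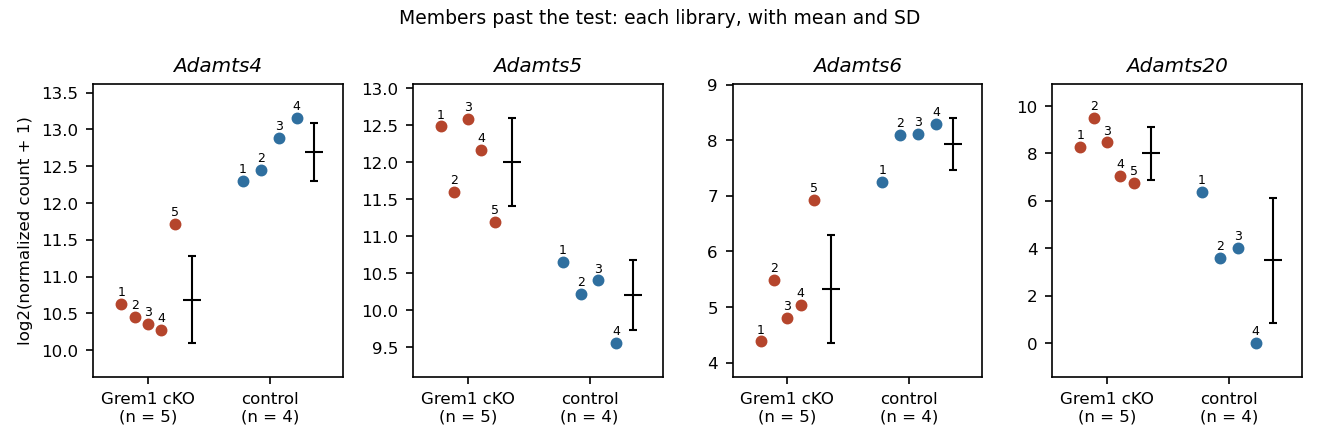
Each point is 1 library on the log2(normalized count + 1) scale, with its replicate number; Grem1 cKO (n = 5) is left of control (n = 4), and the bar beside each group is its mean and SD. Adamts4 and Adamts6 lie lower and Adamts5 and Adamts20 higher in Grem1 cKO, with no overlap of the groups and replicate 5 the cKO point nearest the controls in all 4 panels.

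Among the other ADAMTS proteases, Adamts6, a relative of Adamts10 linked to fibrillin microfibrils, had 19.9, 43.8, 27.1, 31.8 and 120.3 normalized counts in Grem1 cKO replicates 1 to 5, against 151.3, 271.8, 274.5 and 313.0 in control replicates 1 to 4. No Grem1 cKO library reached the lowest control. The mean was 48.6 ± 41.0 in Grem1 cKO (SD, n = 5) and 252.7 ± 70.1 in controls (SD, n = 4), and the gene fell 6.10-fold (log2 fold change -2.61, SE 0.59, 95% interval -3.92 to -1.30, adjusted p = 0.0295). The call was lost when any single library other than Grem1 cKO replicate 5 was left out (adjusted p 0.0528 to 0.0874), and without replicate 5 the adjusted p was 0.00258. At like depth it was 0.668, and edgeR's test gave 0.0547. Adamts17, whose human gene is mutated in a Weill-Marchesani-like syndrome, had 58.9, 16.1, 189.8, 184.2 and 207.6 normalized counts in Grem1 cKO replicates 1 to 5, against 735.0, 589.0, 329.5 and 455.5 in control replicates 1 to 4. The groups did not overlap, and the difference missed the threshold (log2 fold change -2.42, SE 0.74, 95% interval -4.07 to -0.77, adjusted p = 0.0723). Adamts18 had 47.8, 62.6, 431.2, 0 and 264.5 normalized counts in Grem1 cKO replicates 1 to 5, against 1296, 543.5, 2430.0 and 1017 in control replicates 1 to 4. Its groups did not overlap either (log2 fold change -4.49, SE 1.51, 95% interval -7.86 to -1.12, adjusted p = 0.0926; -3.05 in edgeR). The other 4 genes of the group, Adamts10, Adamts13, Adamts16 and Adamts19, had log2 fold changes of -0.39, -0.16, -2.89 and 2.19, and none passed (adjusted p 0.184 to 0.958). The count tests gave smaller changes for Adamts16 (-0.629 in edgeR, -0.619 in DESeq2) and Adamts19 (1.069 and 1.092). Adamts16 is listed with 2667 normalized counts in Grem1 cKO replicate 5, against 16.2 to 123.4 in replicates 1 to 4 and 318.9 to 1722 in controls.

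The procollagen N-proteinases, which remove the amino-terminal propeptide of fibrillar collagens, included 1 of the most abundant members. Adamts2, the main enzyme of the group, had 33716.5, 19614, 25245, 29893 and 34366 normalized counts in Grem1 cKO replicates 1 to 5, against 21928, 32410.3, 25902 and 28722 in control replicates 1 to 4. The Grem1 cKO range enclosed that of the controls, and the 95% interval of the difference was narrow (log2 fold change 0.05, SE 0.19, 95% interval -0.37 to 0.48, adjusted p = 0.881), while the sign changed in some alternatives. Adamts14 had 403.4, 718.1, 394.6, 406.1 and 1121 normalized counts in Grem1 cKO replicates 1 to 5, against 1275, 2044, 734.3 and 2036 in control replicates 1 to 4. Grem1 cKO replicates 1 to 4 lay below all controls and replicate 5 lay between them (log2 fold change -1.34, SE 0.41, 95% interval -2.25 to -0.43, adjusted p = 0.0715). Adamts3 had 817.0, 865.5, 234.6, 655.3 and 1462.5 normalized counts in Grem1 cKO replicates 1 to 5, against 880.9, 1669, 897.9 and 1299.5 in control replicates 1 to 4. Its groups overlapped through replicate 5 (log2 fold change -0.72, SE 0.46, 95% interval -1.75 to 0.30, adjusted p = 0.343).

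Adamts7 and Adamts12 cleave cartilage oligomeric matrix protein (COMP). Adamts7 had 865.6, 271.2, 575.7, 196.5 and 583.1 normalized counts in Grem1 cKO replicates 1 to 5, against 1867, 864.9, 1648 and 1097 in control replicates 1 to 4. Only the highest Grem1 cKO value, in replicate 1, reached into the control range, by a margin of under 1 normalized count (log2 fold change -1.59, SE 0.44, 95% interval -2.57 to -0.60, adjusted p = 0.0558). Adamts12 had 1229, 316.3, 546.5, 822.3 and 3535 normalized counts in Grem1 cKO replicates 1 to 5, against 2449.5, 2066, 1239 and 3924 in control replicates 1 to 4. Grem1 cKO replicate 5 lay inside the control range and the other 4 below it (log2 fold change -1.29, SE 0.62, 95% interval -2.67 to 0.08, adjusted p = 0.21).

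Of the MMPs, 10 form 1 cluster on mouse chromosome 9, in the order Mmp13, Mmp12, Mmp1b, Mmp3, Mmp1a, Mmp10, Mmp8, Mmp27, Mmp20 and Mmp7 in assembly GRCm38.p6. Of these 10 genes, 4 had enough reads to test; all 4 had negative fold changes, with a median of -1.64, and none passed the test. Promoter windows, from 250 bases before to 50 after the annotated start, were taken from RefSeq for the 36 members that matched by symbol, 39 windows in all. Adamts4, Adamts5 and Adamts6, which passed the test, had no window and were not searched. The AP-1 motif TGANTCA, searched on both strands, was in 8 of the 39 (20.5%), against 7.81% of all 32851 mouse windows of this length, and all 8 belong to the cluster. Among those 8 genes, Mmp1a, Mmp1b, Mmp7, Mmp12 and Mmp20 had too few reads to test or none. TATAAA, also searched on both strands, was in 30.8% of member windows against 13.6% of all. The RUNX motif TGTGGT was in 15.4% against 16.8%, and the GC-rich SMAD motif GGCGCC in 20.5% against 11.9%. The windows of the 4 cluster genes with enough reads to test are printed here because the AP-1 motif is in 3 of them and not in that of Mmp8. Capitals mark matches to TGANTCA and to TATAAA or its reverse complement; all lie on the plus strand of GRCm38.p6.
Mmp13, chr9:7272264-7272563: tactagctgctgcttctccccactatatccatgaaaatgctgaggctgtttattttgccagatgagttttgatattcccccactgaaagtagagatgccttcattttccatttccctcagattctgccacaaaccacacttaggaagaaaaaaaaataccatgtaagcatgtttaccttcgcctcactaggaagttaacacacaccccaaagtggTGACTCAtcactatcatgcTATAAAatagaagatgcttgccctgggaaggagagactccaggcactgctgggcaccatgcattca
Mmp3, chr9:7445572-7445871: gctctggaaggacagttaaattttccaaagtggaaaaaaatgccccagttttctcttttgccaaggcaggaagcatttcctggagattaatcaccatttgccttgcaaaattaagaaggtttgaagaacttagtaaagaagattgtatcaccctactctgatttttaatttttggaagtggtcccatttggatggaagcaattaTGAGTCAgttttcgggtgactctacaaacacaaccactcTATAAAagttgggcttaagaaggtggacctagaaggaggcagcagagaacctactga
Mmp10, chr9:7502092-7502391: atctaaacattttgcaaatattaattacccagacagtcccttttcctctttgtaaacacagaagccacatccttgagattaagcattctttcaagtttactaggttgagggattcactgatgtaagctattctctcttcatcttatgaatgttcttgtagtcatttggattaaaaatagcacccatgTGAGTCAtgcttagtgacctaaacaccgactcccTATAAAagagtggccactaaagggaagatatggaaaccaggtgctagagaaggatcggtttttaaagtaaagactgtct
Mmp8, chr9:7558179-7558478: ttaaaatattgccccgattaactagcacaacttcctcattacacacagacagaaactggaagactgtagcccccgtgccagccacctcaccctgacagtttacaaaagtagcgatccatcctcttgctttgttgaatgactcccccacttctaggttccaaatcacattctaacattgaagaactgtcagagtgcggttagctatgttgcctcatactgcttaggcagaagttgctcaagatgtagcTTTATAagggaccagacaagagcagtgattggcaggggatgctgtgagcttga
The first base of the AP-1 match lies at -35 from the start in Mmp13, -46 in Mmp3 and -63 in Mmp10. The motifs were searched separately, and a match is a description of the letters only.

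Mmp13, the collagenase that opens fibrillar collagen in mouse cartilage and bone, had 16918, 35096, 63423, 11027 and 51682 normalized counts in Grem1 cKO replicates 1 to 5, against 93284, 96704, 55673 and 67606 in control replicates 1 to 4. Values varied widely in Grem1 cKO, where replicate 3 lay inside the control range and the other 4 lay below it. The mean was 35629 ± 22281 in Grem1 cKO (SD, n = 5) and 78317 ± 19913 in controls (SD, n = 4), with a 2.61-fold lower fitted level (log2 fold change -1.38, SE 0.48, 95% interval -2.46 to -0.31, adjusted p = 0.103). Mmp8, the collagenase stored in neutrophil granules, had 1181, 14434, 164.8, 1953 and 1776 normalized counts in Grem1 cKO replicates 1 to 5, against 2564, 2746.5, 5153 and 2032 in control replicates 1 to 4. Grem1 cKO replicate 2 lay above all controls and the other 4 below them, with replicate 3 lowest (log2 fold change -0.89, SE 0.99, 95% interval -3.11 to 1.32, adjusted p = 0.594). The sign of this difference reversed in the count tests.

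The stromelysins cleave proteoglycans and other non-collagen matrix proteins and can activate other MMPs. Mmp3, stromelysin 1, had 1750.3, 1421, 3526, 2366 and 15769 normalized counts in Grem1 cKO replicates 1 to 5, against 9633, 14229, 8116 and 17834 in control replicates 1 to 4. Grem1 cKO replicates 1 to 4 lay below all controls, and replicate 5 was above 3 of the 4 controls (log2 fold change -1.90, SE 0.62, 95% interval -3.27 to -0.52, adjusted p = 0.0845). Mmp10, stromelysin 2, had 2.94, 6.06, 2.03, 3.61 and 208.9 normalized counts in Grem1 cKO replicates 1 to 5, against 171.6, 86.9, 56.0 and 336.8 in control replicates 1 to 4. Replicates 1 to 4 held only a few reads each, and replicate 5 lay inside the control range (log2 fold change -3.77, SE 1.26, 95% interval -6.57 to -0.96, adjusted p = 0.0901; -1.88 in edgeR). The printed promoters of Mmp3 and Mmp10 both hold an AP-1 match close to the start, as does that of Mmp13. The windows of Mmp14, Timp1, Adamts3, Adamts12 and Adamts14, also below all controls in Grem1 cKO replicates 1 to 4, hold no such match. A link between the motif and these levels was not tested. Mmp11, stromelysin 3, averaged 1087 ± 229 in Grem1 cKO and 1401 ± 491.3 in controls (log2 fold change -0.33, adjusted p = 0.465).

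Mmp12, the macrophage elastase, had no read in any Grem1 cKO library, against 62.2, 344.9, 0 and 16.8 normalized counts in control replicates 1 to 4. With a floor of 3 reads in each cKO library, the mean was at least 42.7-fold lower in Grem1 cKO, and at least 10.6-fold lower without the highest control; such floors cover counting error only. Macrophage markers summed to 4852 to 108136 normalized counts in Grem1 cKO and 26596 to 59965 in controls. The macrophage sum was highest in Grem1 cKO replicate 2, a library with no Mmp12 read, in which Lyz2, a gene that neutrophils express too, made up 100128.6 of the sum. C1qa and C1qb, markers of macrophages, had 216.7 and 162.9 normalized counts there and were at 0 in the other 4 cKO libraries. In replicate 2 both lay above every control, as did Lyz2, Ptprc at 3674.0, Csf1r at 2921.6 and Cd68 at 757.2. Adgre1, at 273.2, lay inside the control range there. Of the 8 macrophage markers, 1 passed the limma test: Mrc1 fell, with 3 reads in all 5 Grem1 cKO libraries together, 1.35 normalized counts in replicate 2 among them, against 270.2, 16.6, 415.6 and 16.8 normalized counts in control replicates 1 to 4 (log2 fold change -5.87, adjusted p = 0.0211). Of the 8 markers, only Mrc1 lay below the controls in Grem1 cKO replicate 2, where Mmp12 was at 0. Among controls Mrc1 was highest in replicate 3, where Mmp12 was at 0. The part of macrophages in the Mmp12 values was not tested. Mmp12 lay below the filter and was not tested here; the authors' deposited table gives it an adjusted p of 0.000643.

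The gelatinases cleave denatured collagen and basement membrane. Mmp2, the gelatinase of stromal cells, was with Timp2 among the most abundant members per kilobase and had 118646, 89607, 84892, 125998 and 206209.6 normalized counts in Grem1 cKO replicates 1 to 5, against 145293, 162345, 127176 and 175572 in control replicates 1 to 4. Grem1 cKO replicates 1 to 4 lay below all controls and replicate 5 above them, and the difference did not pass (log2 fold change -0.35, SE 0.27, 95% interval -0.96 to 0.26, adjusted p = 0.437). Mmp9, the gelatinase of neutrophils and osteoclasts, had 2182, 30269, 13654, 2897 and 4766 normalized counts in Grem1 cKO replicates 1 to 5, against 16399.6, 36340.4, 9791 and 8826 in control replicates 1 to 4. The groups overlapped widely (log2 fold change -1.19, SE 0.76, 95% interval -2.87 to 0.49, adjusted p = 0.34).

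The membrane-type MMPs act at the cell surface. Mmp14, which activates the Mmp2 precursor in a complex with Timp2, had 22597, 17412.5, 26612, 20280.3 and 74561 normalized counts in Grem1 cKO replicates 1 to 5, against 65035, 80476, 52530.5 and 79261 in control replicates 1 to 4. Replicates 1 to 4 of Grem1 cKO lay below every control, and replicate 5 lay inside their range. The mean was 32293 ± 23867 in Grem1 cKO (SD, n = 5) and 69326 ± 13210.2 in controls (SD, n = 4) (log2 fold change -1.31, SE 0.38, 95% interval -2.16 to -0.46, adjusted p = 0.063). Mmp17, a lipid-anchored member, had 723.5, 787.4, 594.0, 333.8 and 579.2 normalized counts in Grem1 cKO replicates 1 to 5, against 751.2, 838.7, 559.9 and 972.5 in control replicates 1 to 4, with overlapping groups (log2 fold change -0.40, SE 0.29, 95% interval -1.04 to 0.24, adjusted p = 0.405). The other 3 tested members of the group did not pass: Mmp15, Mmp16 and Mmp25 had log2 fold changes of -0.72, 0.55 and -0.02 (adjusted p 0.414 to 0.991). Mmp24 had reads in Grem1 cKO replicate 1 alone, 22 in all, as had Mmp21, with 15. Of the remaining MMPs, Mmp19 had 1362, 683.8, 817.7, 1423 and 6184.5 normalized counts in Grem1 cKO replicates 1 to 5, against 2501, 4478, 1409 and 4416 in control replicates 1 to 4. Replicate 5 was the highest of the 9 libraries, Grem1 cKO replicates 1 to 3 lay below all controls, and replicate 4 lay just above the lowest control (log2 fold change -0.98, SE 0.61, 95% interval -2.34 to 0.38, adjusted p = 0.33). Its exons overlap other genes over 28.3% of their length, so its reads may be shared. Mmp23 had 1894, 3769.6, 2941, 3151 and 4218 normalized counts in Grem1 cKO replicates 1 to 5, against 3413, 4221, 3519.6 and 4463 in control replicates 1 to 4, with overlapping groups (log2 fold change -0.33, SE 0.22, 95% interval -0.82 to 0.15, adjusted p = 0.36). Mmp28 averaged 267 ± 207 in Grem1 cKO and 228 ± 27.8 in controls (adjusted p = 0.889), and Mmp27 had reads in 4 libraries, at most 133.7 normalized counts, in Grem1 cKO replicate 4.

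Per kilobase of exon, Mmp2 averaged 37102 ± 14455 normalized counts in Grem1 cKO and 45267 ± 6228 in controls, the highest level of any MMP in both groups. Mmp13 followed with 13329 ± 8336 in Grem1 cKO and 29299 ± 7450 in controls. Mmp14 had 5418 ± 4005 in Grem1 cKO and 11632 ± 2216.5 in controls, Mmp9 had 3039 ± 3344 in Grem1 cKO and 5041 ± 3613 in controls, and Mmp3 had 2757 ± 3383 in Grem1 cKO and 6915 ± 2460 in controls (SD, n = 5 and n = 4). In Grem1 cKO the SDs of Mmp9 and Mmp3 exceeded their means, so their order there is not separated from that of Mmp14 by the spread.

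The inhibitors did not pass the test in either direction. Timp2, which binds Mmp14 and Mmp2 at the cell surface, had 167139.7, 94932, 149877, 156905 and 157352 normalized counts in Grem1 cKO replicates 1 to 5, against 132439.9, 145328, 129854 and 146460.3 in control replicates 1 to 4. Its level per kilobase was 37279.6 ± 7389 in Grem1 cKO and 35555 ± 2205 in controls, the highest of the TIMPs in both groups. Grem1 cKO replicates 1, 3, 4 and 5 lay above all controls and replicate 2 below them, and the difference did not pass (log2 fold change 0.04, SE 0.21, 95% interval -0.43 to 0.52, adjusted p = 0.917). Timp1, an inhibitor of most secreted MMPs, had 4042, 6767, 6645, 4169.8 and 26246 normalized counts in Grem1 cKO replicates 1 to 5, against 14335, 30533, 16704 and 19999 in control replicates 1 to 4. Grem1 cKO replicates 1 to 4 lay below all controls, and replicate 5 was second only to control replicate 2 (log2 fold change -1.43, SE 0.50, 95% interval -2.55 to -0.32, adjusted p = 0.102). Timp3, which binds to matrix and inhibits Adamts4 and Adamts5 as well as MMPs, had 70973, 42944, 45179, 58001 and 32798 normalized counts in Grem1 cKO replicates 1 to 5, against 36324, 29173, 38531 and 28085 in control replicates 1 to 4. Replicates 1 to 4 of Grem1 cKO lay above all controls and replicate 5 inside their range (log2 fold change 0.56, SE 0.22, 95% interval 0.07 to 1.05, adjusted p = 0.138). Of its exon length, 21.3% overlaps Syn3, so its reads may be shared. Timp4 was low, at 114.4 to 568.9 normalized counts in Grem1 cKO and 72.7 to 353.1 in controls (log2 fold change 0.49, adjusted p = 0.632).

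Among the ADAMTS-like genes, Adamtsl5, whose product binds fibrillin microfibrils, had 2790.4, 1552, 2733, 2191 and 1383 normalized counts in Grem1 cKO replicates 1 to 5, against 1248, 1102, 1013 and 1227 in control replicates 1 to 4. The groups did not overlap, and the difference missed the threshold (log2 fold change 0.84, SE 0.23, 95% interval 0.33 to 1.35, adjusted p = 0.0533). Adamtsl1, also named punctin, had 1190.2, 1060.0, 3495, 966.8 and 1526 normalized counts in Grem1 cKO replicates 1 to 5, against 1131, 583.5, 655.7 and 906.9 in control replicates 1 to 4. Grem1 cKO replicates 2 and 4 lay inside the control range and the other 3 above it (log2 fold change 0.88, SE 0.38, 95% interval 0.04 to 1.71, adjusted p = 0.166). Adamtsl2, Adamtsl3 and Adamtsl4 had log2 fold changes of 0.36, 0.25 and 0.17 (adjusted p 0.736 to 0.767).

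The number of members that passed depended on Grem1 cKO replicate 5. Without it, 19 of the 43 tested members passed the limma test (44.2%), against 22.5% of all tested genes. Higher in Grem1 cKO were then 5, against 12.4% of all genes, namely Adamts5, Adamts8, Adamts20, Adamtsl5 and Timp3. Lower were 14, against 10.1% of all genes, namely Mmp3, Mmp10, Mmp13, Mmp14, Mmp19, Adamts4, Adamts6, Adamts7, Adamts12, Adamts14, Adamts16, Adamts17, Adamts18 and Timp1. With replicate 5 left out, the log2 fold change was -2.48 for Mmp3 (adjusted p = 0.00131), -1.67 for Mmp14 (0.000576), -1.90 for Timp1 (0.00174) and 0.70 for Timp3 (0.029). Leaving out any other library gave 2 or 3 member calls, and over all genes 377 to 669 calls, against 1184 with all 9 libraries and 3562 without replicate 5. Set alone against the controls, replicate 5 gave no member call, with 0 members past the test against 0.524% of all genes.

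Positions relative to the control range were also counted library by library. In 13 of the 43 tested members (30.2%), against 12.3% of all tested genes, Grem1 cKO replicates 1 to 4 all lay below every control. For 4 of these 13, Adamts4, Adamts6, Adamts17 and Adamts18, replicate 5 lay below the controls too. For 7, Mmp3, Mmp10, Mmp14, Adamts3, Adamts12, Adamts14 and Timp1, it lay inside the control range, and for Mmp2 and Adamts16 it lay above. In 5 of the 43 (11.6%), against 15.2% of all genes, replicates 1 to 4 lay above every control; replicate 5 did so as well for Adamts5, Adamts20 and Adamtsl5, lay inside for Timp3 and was below, at 0, for Adamts8. Replicate 5 shares its depth class of under 60 M reads with the controls, and its chondrocyte marker sum was the highest of the cKO libraries. Whether depth, the cartilage markers or the knockout itself moves these genes was not tested.

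**Figure D3:**
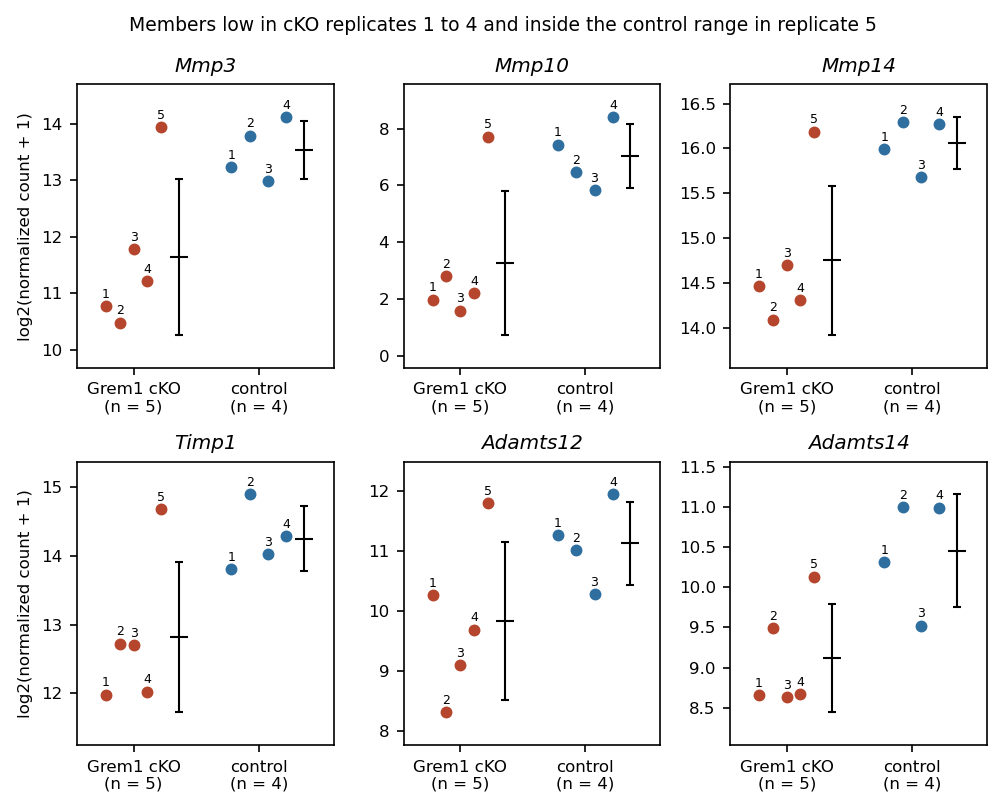
Log2(normalized count + 1) by library for Mmp3, Mmp10, Mmp14, Timp1, Adamts12 and Adamts14, with Grem1 cKO (n = 5) left of control (n = 4), replicate numbers on the points and the mean and SD beside each group. Replicate 5 of Grem1 cKO lies inside the control range in all 6 panels, and replicates 1 to 4 lie below every control.

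**Figure D4:**
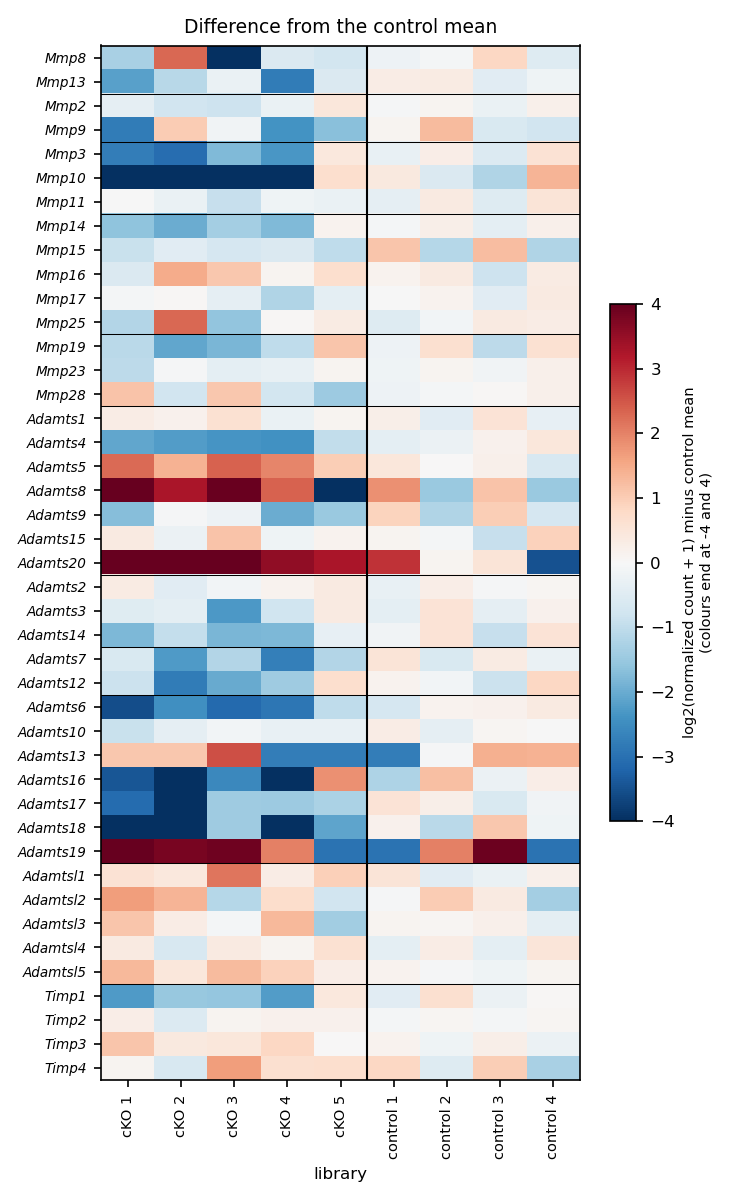
Difference of each library from the control mean on the log2(normalized count + 1) scale for the 43 tested members, with the 5 Grem1 cKO libraries left of the 4 controls and lines between role groups; red is higher, blue is lower, and colours end at -4 and 4. Columns 1 to 4 of Grem1 cKO are blue for Mmp3, Mmp10, Mmp14, Timp1 and several ADAMTS genes where column 5 is pale, and Adamts5 and Adamts20 are red in all 5.

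Some members were high in the libraries that were high in markers of another cell type. Neutrophil markers (8 genes, all detected) summed to 779520 normalized counts in Grem1 cKO replicate 2 and 46108 to 102039 in the other 4 cKO libraries, against 579410 in control replicate 2 and 130743 to 236174 in the other controls. In Grem1 cKO replicate 2, Mmp8 was at 14434, Mmp9 at 30269 and Mmp25, a leukocyte membrane-type MMP, at 1151, each the highest of the cKO libraries. Of these 3, only Mmp9 was also highest in control replicate 2 among the controls. Mmp8 and Mmp25 were highest in control replicate 3, at 5152.8 and 298.2. Of the neutrophil markers, Retnlg was highest there too, at 6522.3, and lowest in control replicate 2, at 1796.0. All the other neutrophil markers were highest in control replicate 2 among the controls. Mmp9 was second highest of the cKO libraries in replicate 3, at 13654, where the neutrophil sum was the lowest, at 46108. Osteoclast markers summed to 5586.3 there, against 1984.8 to 5316.2 in the other cKO libraries and 1856.1 to 2140.7 in controls. Calcr, at 4127.2, made up most of that sum and was the only osteoclast marker to pass the limma test, as higher (adjusted p = 0.0213). Acp5 was at 1034.7 there and at 579.5 to 845.0 in Grem1 cKO replicates 1, 2 and 4, all below every control (1579.4 to 2098.8). It was at 4010.6 in replicate 5, above them. Atp6v0d2 was at 345.8 in replicate 3 and was higher in every Grem1 cKO library than in any control. The osteoclast markers thus did not move together. The part of osteoclasts in the Mmp9 values was not tested. Mmp15 had 1632 and 1766 normalized counts and Adamts9 had 1458 and 1554 in control replicates 1 and 3, the libraries high in endothelial markers. The other libraries ranged from 327.0 to 546.5 for Mmp15 and from 197.3 to 764.6 for Adamts9. The fold changes of both genes rest on those 2 controls: without them the log2 fold change was 0.45 for Mmp15, the opposite sign, and -0.15 for Adamts9 (adjusted p = 0.443 and 0.911). Without control replicates 1 and 3, where 2.13% of all genes passed, Adamts4 (adjusted p = 0.0401), Adamts5 (0.0401) and Adamts20 (0.0386) still passed and Adamts6 did not (0.118).

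**Figure D5:**
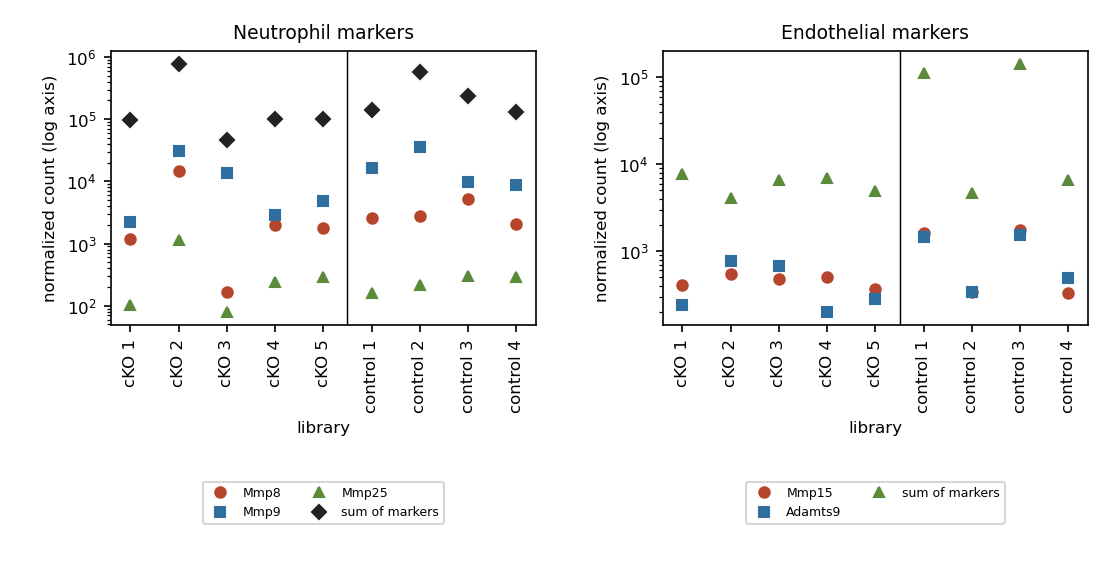
Normalized counts on a log axis by library, Grem1 cKO 1 to 5 left of the line and control 1 to 4 right of it: Mmp8, Mmp9 and Mmp25 with the neutrophil marker sum (left), and Mmp15 and Adamts9 with the endothelial marker sum (right). The neutrophil sum and the 3 MMPs peak among cKO libraries in replicate 2, and the endothelial sum, Mmp15 and Adamts9 peak in control replicates 1 and 3.

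Genes that act with these proteases were read from 3 lists of 60 genes, 56 of them tested. Of the 18 tested genes of precursor activation and protease control, none rose and 1 fell. This was Furin, the convertase that removes the propeptide of ADAMTS proteases and membrane-type MMPs, with 8239, 5752, 8671, 5708 and 8701 normalized counts in Grem1 cKO replicates 1 to 5, against 14301, 14766, 15662 and 14553 in control replicates 1 to 4. All Grem1 cKO libraries lay below all controls (log2 fold change -1.02, SE 0.16, 95% interval -1.38 to -0.68, adjusted p = 0.0068), and the call held with each single library left out; it was lost at like depth (adjusted p = 0.101) and without control replicates 1 and 3 together (0.0608). Of the 20 tested genes of other matrix proteases, Htra3, a secreted serine protease, rose and none fell, with 82197, 63093, 70754, 77615 and 44254.5 normalized counts in Grem1 cKO replicates 1 to 5, against 30092, 39582, 30329 and 34942 in control replicates 1 to 4. The groups did not overlap (log2 fold change 0.98, SE 0.20, 95% interval 0.54 to 1.41, adjusted p = 0.0198), but the call was lost without Grem1 cKO replicate 1 or 4 or control replicate 1, 3 or 4 (adjusted p 0.053 to 0.059). It was also lost without control replicates 1 and 3 together (0.152).

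Of the 18 tested substrates, none rose and 3 fell. Acan, aggrecan, the substrate of Adamts4 and Adamts5, had 1377, 2932, 473.3, 4041 and 63069 normalized counts in Grem1 cKO replicates 1 to 5, against 105450.4, 153804, 71699 and 157508 in control replicates 1 to 4. All cKO libraries lay below all controls, with replicate 5 closest to them (log2 fold change -5.08, SE 1.13, 95% interval -7.59 to -2.56, adjusted p = 0.0284). Col2a1, the collagen of cartilage, fell as well (log2 fold change -4.56, adjusted p = 0.0184), as did the proteoglycan Bgn (-1.17, adjusted p = 0.0382). Acan and Col2a1 are also chondrocyte markers, a list of which 4 of 8 genes fell. The Col2a1 call was lost without Grem1 cKO replicate 1 or 4 or control replicate 2 or 4 (adjusted p 0.0509 to 0.0534). With 1 library left out, that of Acan held only without Grem1 cKO replicate 3 or 5 (highest adjusted p 0.0769), and that of Bgn only without replicate 5 (highest 0.0978). In edgeR none of the 3 passed (adjusted p = 0.164 for Acan, 0.0624 for Col2a1 and 0.0648 for Bgn). DESeq2 called Col2a1 (0.00905) and Bgn (0.00314) and not Acan (0.0666). Without control replicates 1 and 3 the limma calls were lost for Acan (0.116), Col2a1 (0.0769) and Bgn (0.116). Over the 3 lists 1 gene rose and 4 fell, or 1.79% and 7.14% of the 56 tested, against 4.61% and 2.87% of all genes. Without Grem1 cKO replicate 5 these counts were 5 and 18, or 8.93% and 32.1%, against 12.4% and 10.1% of all genes. The lists were chosen with earlier results of these data known, so these shares describe the lists and are not evidence of an excess.

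In the authors' deposited table, made with DESeq2 per the submitters' processing notes, 10 of the 44 members given an adjusted p had one under 0.05 (22.7%), against 17.1% of all genes given one. There, 3 were higher in Grem1 cKO (Adamts5, Adamts20 and Adamtsl5) and 7 lower (Mmp12, Adamts4, Adamts6, Adamts7, Adamts14, Adamts17 and Adamts18). The authors' deposited table gives log2 fold changes of -1.94 for Adamts4 and 1.83 for Adamts5, with adjusted p-values of 9.58e-07 and 3.15e-06.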

How the data were processed

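Polyadenylated RNA of sorted cells was sequenced in 9 libraries, 5 Grem1 cKO and 4 control, grouped and numbered by their titles. The deposited matrix holds, for 27179 Entrez gene IDs, each count after division by a size factor of its library (a signal, here called the normalized count). A second table deposited by the authors compares the genotypes, with log2 fold changes and their standard errors, a test statistic (score), mean normalized counts (signal) and p-values, per the file headers. STAR, featureCounts, DESeq2 and the build mm39 appear in the submitters' processing notes, without versions. The sources used here do not give the annotation, strand setting or multi-mapping rule, so reads of overlapping or near-identical genes cannot be assigned with certainty.

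Within each library at least 99.9938% of values above 0 were whole multiples of the value of 1 read (tolerance 0.01 read). The whole reads recovered this way, 43.5 to 87.2 M per library, gave the depth and the count tests; intervals and floors from them cover counting error only. Genotypes were compared with limma 3.58.1 (R 4.3.3; eBayes with trend, two-sided) on log2(normalized count + 1), genotype only, for the 15832 genes with at least 10 normalized counts in at least 4 libraries, Benjamini-Hochberg adjusted over all of them at a threshold of 0.05. The fold changes are differences of mean log2 values: the pseudocount shrinks those of genes near 0, yet for low or uneven genes they can exceed the count tests' (Adamts20, 4.52 against 3.56 in edgeR). The script was tested on simulated data. Alternatives were pseudocounts of 0.5 and 5, no filter, a filter of 50, TMM scaling, count tests on recovered reads (DESeq2 1.42.0, and edgeR 4.0.16), a replicate block, each library left out, libraries under 60 M reads only, and control replicates 1 and 3 left out.

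Members and lists were chosen with earlier results of these data known. Values in every library are given for members past the test, the 2 of smallest p in each role group, the 6 of highest mean, and those with a mean of at least 50 whose groups do not overlap. Partner genes are named where they passed, up to 4 in each direction and list. Adamts8, Adamts16, Mmp12 and a few others outside this rule are named where a count or a library turns on them. Levels per kilobase use exon lengths of GENCODE vM21 (GRCm38), which differs from mm39; Mmp1a had no length there. Promoters are those of RefSeq for GRCm38.p6, matched by symbol for 36 of 51 members.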

Additional observations from a re-analysis of the deposited data

Results flagged for a closer look

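In 54 tests of 1 library against the rest of its group (Dixon's ratio on the log2 scale, over the named members and Grem1), 4 values lay apart, 3 of them in 1 library, where chance gives about 1 in 20. Grem1 cKO replicate 5 held 208.9 normalized counts of Mmp10, against 2.03 to 6.06 in the other 4 cKO libraries (ratio 0.801). The same library held 3361 of Adamts4, against 1237 to 1584 (ratio 0.753), and 26246 of Timp1, against 4042 to 6767 (ratio 0.725). For these 3 genes it was the cKO library nearest the controls. Grem1 cKO replicate 2 held 94932 of Timp2, against 149877 to 167140 in the other 4 (ratio 0.807). That library also had the highest neutrophil and macrophage marker sums of the cKO libraries, 779520 and 108136 normalized counts. The part of these markers in the Timp2 value was not tested.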

How the results depend on the processing

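The 2 members higher in Grem1 cKO became 1 with a pseudocount of 0.5, without a filter and in edgeR, 3 in DESeq2, 5 with the replicate block and 1 to 5 with 1 library left out. Over all 15832 genes tested, the 730 higher became 686 with that pseudocount and 516 in edgeR. They became 538 of 20156 without a filter and 1567 of 15708 in DESeq2. With the block they became 1508, and with 1 library left out 257 to 1963. The 2 members lower became 1 without a filter, in edgeR and without control replicates 1 and 3, 7 in DESeq2, 12 with the block and 1 to 14 with 1 library left out. Over all genes, the 454 lower became 337 without a filter, 270 in edgeR and 58 without those 2 controls. They became 972 in DESeq2, 1207 with the block and 120 to 1599 with 1 library left out. Of the partner genes, the 1 higher became 5 in DESeq2 and with the block, 0 at like depth and without control replicates 1 and 3, and 0 to 5 with 1 library left out. The 4 lower became 1 in edgeR, 11 in DESeq2, 15 with the block, 0 in both reduced sets and 1 to 18 with 1 library left out. Grem1 had -3.16 at like depth (adjusted p = 0.153) and -2.36 without control replicates 1 and 3 (0.0934). The like-depth set holds 1 cKO library, so its lost calls rest on fewer samples; the cause of the other changes was not tested.

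Some log2 fold changes reversed sign, all of members that had not passed. At like depth, which holds only Grem1 cKO replicate 5, 15 of the 43 did: Adamts8 had -6.18, Adamts19 -2.97, Adamts16 1.84, Adamtsl3 -1.38, Adamtsl2 -0.78, Mmp25 0.32, Mmp2 0.44, Mmp3 0.41, Mmp10 0.68, Mmp14 0.13, Mmp19 1.10, Mmp23 0.12, Adamts3 0.35, Adamts12 0.67 and Timp1 0.42. In edgeR and DESeq2, Mmp8 had 0.30 and 0.32, Mmp25 0.61 and 0.63, Mmp28 0.204 and 0.225, and Adamts13 0.401 and 0.42. Adamts13 had 0.043 with a pseudocount of 5. With the block, Adamts13 had 0.494 and Mmp28 0.175. Without control replicates 1 and 3, Mmp15 had 0.446, Adamts15 -0.174 and Adamtsl4 -0.233. With 1 library left out, the range was -1.08 to 0.494 for Adamts13, -0.067 to 0.553 for Adamts15, -0.091 to 0.74 for Adamtsl2, -0.009 to 0.66 for Adamtsl3, -0.595 to 0.372 for Mmp25 and -0.475 to 0.175 for Mmp28. Adamts2 had -0.021 with the block, -0.125 without control replicates 1 and 3 and -0.046 to 0.181 with 1 library left out. Timp2 had -0.034 without those controls and -0.015 to 0.189 with 1 library left out.

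Replicate numbers did not pair the samples: same-numbered deviations correlated at 0.070, 0.017, -0.006 and -0.011. In the block fit replicate 5 has no partner and no weight in the genotype difference. There 17 of the 43 tested members (39.5%) passed, against 17.1% of all genes. All genes called numbered 1184 with limma, 786 in edgeR, 2539 in DESeq2 and 2715 with the block.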

Other observations

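Ratios of proteases to inhibitors within a library gave a mixed picture. Mmp14 over Timp2, in normalized counts, was 0.129 to 0.183 in Grem1 cKO replicates 1 to 4 and 0.474 in replicate 5, against 0.405 to 0.554 in controls. Mmp13 over Timp1 was 1.97 to 9.54 in Grem1 cKO and 3.17 to 6.51 in controls, and Mmp3 over Timp1 was 0.210 to 0.601 in Grem1 cKO and 0.466 to 0.892 in controls. All 3 ranges overlapped between the groups. Mmp9 over Mmp8 was 82.9 in Grem1 cKO replicate 3 and 1.48 to 2.68 in the other cKO libraries, against 1.90 to 13.2 in controls. These ratios were not tested.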
